A study of Mus musculus with 14 samples.

Results

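The response of stage E1 erythroid progenitors to erythropoietin (EPO) was followed across all genes of an Affymetrix mouse expression array, and is described here by what the genes do, with most weight on genes outside the study's text. The comparison takes 8 of the 14 arrays of the series, 4 EPO-challenged and 4 unchallenged, which were chosen by their labels. Marrow came from wild-type C57Bl/6 female mice aged 8 to 12 weeks and was cultured before lineage-positive cells were depleted and Kit+ CD71+ cells selected. The record gives culture day 3 for these stage E1 cells and the study's methods give day 3.5. Every sample was then held for 5.5 h without cytokines, and either received EPO at 4 U/mL for 90 min or none. The other 6 arrays (3 with EPO and 3 without) are of the later stage E2, taken at day 3.5 as Lin-depleted, Kit-depleted, CD71-selected cells, and serve only to show where stage E1 differs. The labels call the replicates biological but do not say how many mice gave a sample. If replicates share mice or cultures, p-values measure the spread between these samples alone.

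EPO is the kidney hormone that keeps late erythroid progenitors alive and lets them divide and mature. Its receptor acts through the kinase JAK2, which activates the transcription factor STAT5 and the PI3K-AKT and ERK pathways. The study describes stage E1 as similar to the CFU-e, the progenitor whose survival depends most sharply on EPO. Withdrawal followed by a short pulse shows the early transcript response. Active AKT keeps FOXO transcription factors out of the nucleus, and growth signals of this kind commonly engage Myc, ribosome production and nutrient uptake.

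The deposited values are GC-RMA signals on a log scale, taken as log2, from which 1 constant per probe set has been subtracted. A value is therefore a distance from that constant and not a level, so that values can be compared between arrays within a gene and not between genes. In stage E1 arrays correlated at 0.768 to 0.899 within the unchallenged group, 0.792 to 0.912 within the EPO group and 0.648 to 0.802 between groups. EPO-challenged and unchallenged arrays of the same replicate number deviated together from their group means, so results are also given from a fit with the replicate number as a block, written "with the block". Each probe set was tested two-sided with limma, and passed where its p after Benjamini-Hochberg correction was under 0.05. By this test 362 of 45037 probe sets (0.804%) were higher with EPO and 162 (0.36%) lower. With the block these counts were 44 (0.0977%) and 17 (0.0377%).

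At the level of genes, each read from its most variable probe set across the 14 arrays, 205 of 18193 (1.13%) were higher and 72 (0.396%) lower. In all 277 the 4 EPO arrays lay wholly above or below the 4 unchallenged arrays, a separation that 4.12% of all genes showed upwards and 2.56% downwards. The median log2 change was 1.40 over the genes called higher, -1.05 over those called lower and -0.0048 over all genes. At least a 2-fold change was reached by 146 of the genes called higher and 38 of those called lower. With the block 29 genes were higher (0.159%) and 7 lower (0.0385%), and 25 and 3 of these were among the genes called without it. Without EPO replicate 3 the counts were 92 higher and 29 lower, without EPO replicate 4 they were 121 and 43, and without unchallenged replicates 1, 2, 3 and 4 they were 129 and 51, 130 and 46, 114 and 31, and 152 and 51. A gene named below passed the test unless its value is given without the words rose or fell. The study's text, taken as its main text and its shorter gene tables, names 83 of the 277 genes, and 194 (141 higher and 53 lower) were counted as not among those names. Nrp stands in those tables but was counted among the 194. A long supplementary list of clustered genes was not used for this count and names more of them. The study's supplementary table of metabolism genes, which also holds ubiquitin and transporter genes, was not at hand. Genes described as outside the study's text can stand in either.

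Ribosome assembly held the most called members of any list. Ribosome subunits are built in the nucleolus, where RNA polymerase I transcribes the ribosomal RNA and a large cast of assembly factors folds, cuts and modifies it. Of 71 assembly factors of the large subunit 19 were higher and none lower, with a median log2 change of 0.70 over the list. Of 59 members of the small subunit processome, which processes the precursor of the small subunit, 11 were higher, none lower and the median was 0.55. The 18 snoRNP proteins, which guide chemical modification of ribosomal RNA, had 4 members higher, none lower and a median of 0.55. With the block 3, 3 and 0 members were higher in these lists.

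To show the arrays one by one, each member was set to its mean in the unchallenged arrays and the median over the list was taken in every array. For the large subunit factors, these medians were -0.21, -0.04, 0.08 and 0.14 in the unchallenged arrays and 0.63, 0.61, 0.81 and 0.82 in the EPO arrays. The small subunit processome gave -0.10, -0.05, 0.08 and 0.15 without EPO and 0.45, 0.44, 0.64 and 0.59 with it. In both lists the 2 groups of arrays did not overlap, and replicate 1 was the lowest of the unchallenged arrays. The count of large subunit factors fell from 19 to 11, 11 and 10 without unchallenged replicate 1, 2 and 3 and 12, 7 and 9 without EPO replicate 2, 3 and 4, and was 10 after quantile normalization. The count of processome members fell from 11 to 5, 7 and 5 without unchallenged replicate 1, 2 and 3 and 6, 5 and 4 without EPO replicate 1, 2 and 3, and was 3 after quantile normalization. For the snoRNP proteins the count of 4 was 1 without unchallenged replicate 3 and 1 without EPO replicate 3, and 2 after quantile normalization.

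**Figure D1:**
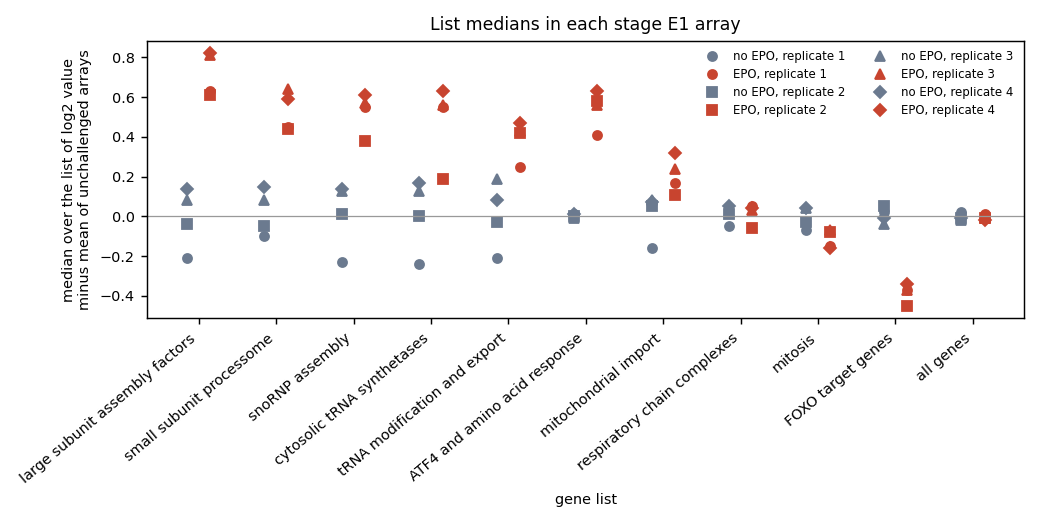
Median value of each gene list in each of the 8 stage E1 arrays (y axis, log2 value minus the mean of the 4 unchallenged arrays, median over the list; 1 point an array, colours for the group and shapes for the replicate number), for 10 lists and all genes. In the lists of large subunit factors, ATF4 and amino acid response and small subunit processome the EPO arrays lie above the unchallenged ones, with FOXO target genes on the other side.

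Among processome members outside the study's text, Utp4 is a core subunit of the complex that first binds the ribosomal precursor. Utp4 stood at 0.75, 0.74, 0.89 and 1.01 in the unchallenged arrays and at 1.97, 1.74, 1.96 and 1.76 in the EPO arrays. The groups were well apart, and Utp4 rose by 1.01 ± 0.085 (SE) on the log2 scale (adjusted p = 0.00461, 0.0807 with the block). Krr1, another early assembly factor, rose by a smaller 0.38 (adjusted p = 0.0107, 0.112 with the block) from values of 0.88, 0.93, 0.85 and 0.89 to 1.34, 1.18, 1.24 and 1.32, which were close within each group. These calls for Utp4 and Krr1 were lost after quantile normalization (adjusted p = 0.0535 and 0.576), and that for Krr1 also for the mean of its 4 probe sets (0.297).

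The box C/D snoRNP core protein Nop56 carried the clearest change of its list. It stood at 0.68, 0.67, 0.64 and 0.73 without EPO and at 1.46, 1.67, 1.74 and 1.87 with EPO, and rose by 1.01 ± 0.082 (SE) on the log2 scale (adjusted p = 0.00435, 0.066 with the block). Its partner Nop58 rose by 1.14 (adjusted p = 0.0459, 0.109 with the block). For the H/ACA proteins, which direct pseudouridylation, Dkc1 rose by 0.73 (adjusted p = 0.0197, 0.0807 with the block) and its assembly factor Naf1 by 0.99 (adjusted p = 0.0138, 0.1 with the block). For Nop58 the adjusted p was 0.0596 to 0.154 without any 1 array other than EPO replicate 1, 0.114 after quantile normalization, 0.0616 with arrays centred on their medians, 0.0515 with limma's trend and robust options and 0.052 by the methods' t-test after adjustment. For Dkc1 it was 0.0745 to 0.0802 without unchallenged array 3 or EPO array 3 and 0.258 after quantile normalization, and for Naf1 0.0526 to 0.062 without unchallenged array 3 or EPO array 3. Ccdc86, a nucleolar protein, rose by 2.31 ± 0.23 (SE) on the log2 scale (adjusted p = 0.00837, 0.0691 with the block) from -0.14, 0.56, 0.72 and 0.83 to 2.61, 3.11, 2.77 and 2.71. Of the large subunit factors with the smallest p, Rrs1, Nmd3, Gnl3 and Urb2 are all in the study's text. They rose by 2.07, 1.47, 1.15 and 1.42 on the log2 scale, each without overlap between groups and each called whichever array was left out. With the block their adjusted p were 0.0495, 0.1, 0.105 and 0.0984.

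Fewer genes around ribosome assembly passed. Of 16 subunits and factors of RNA polymerase I only Polr1b, the second largest subunit, was higher, by 1.95 (adjusted p = 0.0245, 0.0965 with the block), and the list median was 0.33. For Polr1b the adjusted p was 0.0591 to 0.0921 without unchallenged array 2 or 4 or EPO array 1, 2, 3 or 4. The 17 snoRNA host genes, spliced RNAs whose introns yield snoRNAs, had a median of 0.50, with Snhg1 higher by 0.82 (adjusted p = 0.0245, 0.121 with the block) and Dancr by 1.76 (adjusted p = 0.0349, 0.156 with the block). For Snhg1 the adjusted p was 0.0571 to 0.0723 without unchallenged array 2 or EPO array 1, 2, 3 or 4, 0.158 after quantile normalization and 0.179 for the mean of its probe sets, and for Dancr 0.0503 to 0.114 without any 1 array other than unchallenged replicate 2 and 0.0761 after quantile normalization. No subunit of RNA polymerase III passed (0 of 22, median 0.16), the largest changes being those of Polr3g at 1.35 (adjusted p = 0.215) and Polr3e at 1.33 (0.0807). One member of 22 of the RNA exosome and nuclear decay list passed, the core subunit Exosc4, which rose by 0.77 (adjusted p = 0.0298, 0.196 with the block). For Exosc4 the adjusted p was 0.0506 to 0.105 without unchallenged array 2 or 3 or EPO array 1, 2, 3 or 4, 0.0981 after quantile normalization and 0.0875 for the mean of its probe sets.

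Of 49 cytosolic ribosomal proteins, the building blocks of the ribosome itself, 2 passed, Rps10 and Rpl12, and the median was 0.06. Rps10, a protein of the small subunit, stood at 0.05, -0.02, -0.10 and 0.00 without EPO and at 1.54, 1.81, 1.65 and 1.12 with EPO and rose by 1.54 ± 0.14 (SE) on the log2 scale (adjusted p = 0.00647, 0.085 with the block). Only 1 of its 6 probe sets passed. Rpl12 rose by 3.02 (adjusted p = 0.00837, 0.0622 with the block). Among 61 translation factors 1 was higher, Eif1a, which helps the small subunit to find the start codon. Eif1a stood at 0.64, 0.38, 0.65 and 0.89 without EPO and at 2.46, 2.73, 2.34 and 2.87 with EPO, in both of its probe sets, and rose by 1.96 ± 0.15 (SE) on the log2 scale (adjusted p = 0.00364, 0.0568 with the block). The median over translation factors was 0.20.

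Transfer RNA supply was a further group with rises and no fall. Of 70 genes for tRNA modification and export 7 were higher (2 with the block), with a median of 0.33. Alkbh1, a dioxygenase that acts on methylated and wobble bases of tRNA, stood at 0.05, 0.14, 0.38 and -0.05 without EPO and at 1.61, 1.58, 1.50 and 1.48 with EPO. The groups were far apart, and Alkbh1 rose by 1.41 ± 0.092 (SE) on the log2 scale (adjusted p = 0.00222, 0.0554 with the block). Rpp14, a subunit of the RNase P that trims tRNA ends, moved from 0.58, 0.63, 0.73 and 0.73 to 1.25, 1.26, 1.50 and 1.44, a rise of 0.70 (adjusted p = 0.00837, 0.0323 with the block) that passed whichever array was left out. The methyltransferase subunit Trmt61a and Yrdc, which starts the threonylcarbamoyl modification, rose by 2.50 and 1.96 (adjusted p = 0.0123 and 0.0245, 0.108 and 0.0386 with the block). The count of 7 fell to 3, 4 and 4 without unchallenged replicate 1, 2 and 3 and 3, 2 and 4 without EPO replicate 2, 3 and 4. For Trmt61a the adjusted p was 0.0545 without EPO array 3, and for Yrdc 0.0526 to 0.0944 without unchallenged array 1, 2 or 3 or EPO array 2, 3 or 4. Among 56 genes of the nuclear pore and transport list Xpot, the exporter of tRNA, was the only one called, at 0.76 (adjusted p = 0.0404, 0.258 with the block), with a list median of 0.26. For Xpot the adjusted p was 0.0562 to 0.121 without any 1 of the 8 arrays, 0.0698 after quantile normalization and 0.0522 with arrays centred on their medians.

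Of 22 cytosolic tRNA synthetases, which load amino acids onto tRNA, 3 were higher and none lower, with a median of 0.50 and none past the test with the block. The isoleucine enzyme Iars stood at 0.63, 0.58, 0.62 and 0.63 without EPO and at 1.29, 1.10, 1.12 and 1.02 with EPO, and the unchallenged arrays were almost level. Iars rose by 0.52 ± 0.056 (SE) on the log2 scale (adjusted p = 0.0117, 0.0902 with the block). The threonine enzyme Tars rose by 0.75 (adjusted p = 0.0178, 0.181 with the block) and the glycine enzyme Gars by 0.51 (adjusted p = 0.0359, 0.118 with the block). For Iars the adjusted p was 0.235 after quantile normalization. For Tars the adjusted p was 0.0595 to 0.0658 without unchallenged array 4 or EPO array 3 or 4 and 0.0724 after quantile normalization, and for Gars 0.0595 to 0.109 without any 1 array other than EPO replicate 1 and 0.0551 with arrays centred on their medians. The count of 3 fell to 1 without unchallenged replicate 4 and 1 without EPO replicate 3. Of 16 mitochondrial synthetases 1 was higher, the glutamate enzyme Ears2. Ears2 moved from 0.26, 0.02, 0.10 and -0.03 to 1.07, 1.10, 1.31 and 1.28, and rose by 1.10 ± 0.084 (SE) on the log2 scale (adjusted p = 0.00364, 0.0807 with the block), while the list median was 0.14.

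The second group was that of the amino acid response. ATF4 is a transcription factor whose translation rises when amino acids run short or the endoplasmic reticulum is stressed, and its targets import and make amino acids, charge tRNA and restrain signalling. Of 37 genes known as ATF4 targets or partners 10 were higher and none lower, with a median log2 change of 0.60, and 0.41 over the 34 outside the study's text. No member passed with the block. Array medians of the list were 0.01, 0.00, -0.01 and 0.01 without EPO and 0.41, 0.58, 0.56 and 0.63 with EPO, with no overlap. The count of 10 fell to 5 and 3 without unchallenged replicate 1 and 3 and 6, 4 and 4 without EPO replicate 2, 3 and 4, and was 6 after quantile normalization.

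Nupr1, a small chromatin protein induced by stress, gave the largest rise among called genes outside the study's text. Nupr1 stood at -4.47, -4.43, -4.24 and -4.81 in the unchallenged arrays and at -0.07, -0.26, -0.79 and -1.22 in the EPO arrays. Every EPO array was far above every unchallenged one. Nupr1 rose by 3.90 ± 0.27 (SE) on the log2 scale (adjusted p = 0.00275, 0.0502 with the block), which is 14.9-fold, and both of its probe sets passed. Trib3, a pseudokinase that feeds back on ATF4, and Chac1, which breaks down glutathione, rose by 4.24 and 3.49 (adjusted p = 0.00159 and 0.00439, 0.066 and 0.0681 with the block).

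Slc7a1, the transporter of arginine and lysine, stood at -2.09, -1.13, -1.38 and -1.43 without EPO and at 0.12, 0.57, 0.79 and 0.72 with EPO. It rose by 2.05 ± 0.24 (SE) on the log2 scale (adjusted p = 0.014, 0.0502 with the block), in 2 of 3 probe sets. For Slc7a1 the adjusted p was 0.0521 to 0.0595 without unchallenged array 3 or EPO array 3 or 4. Slc7a5, a subunit of the exchanger that brings in leucine, rose by 1.22 (adjusted p = 0.0446, 0.113 with the block). For Slc7a5 the adjusted p was 0.062 to 0.149 without any 1 array other than EPO replicate 1, 0.0592 with arrays centred on their medians and 0.051 by the methods' t-test after adjustment. The amino acid transporters as a list (35 genes) had these 2 higher, 1 lower and a median of 0.00.

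The transporter that fell was Slc38a9, which sits on the lysosome and reports its arginine to the growth kinase complex mTORC1. Slc38a9 stood at 0.40, 1.17, 0.38 and 0.38 without EPO and at -2.35, -0.98, -1.47 and -1.91 with EPO. All EPO arrays were lower, with unchallenged replicate 2 apart from the other unchallenged arrays, and the gene fell by 2.26 ± 0.33 (SE) on the log2 scale (adjusted p = 0.0323, 0.066 with the block) in 2 of 7 probe sets. For Slc38a9 the adjusted p was 0.0501 to 0.101 without any 1 array other than EPO replicate 2. Sesn2, a leucine sensor that restrains mTORC1, moved the other way. Sesn2 stood at -4.61, -3.74, -4.62 and -4.54 without EPO and at -1.48, -2.11, -2.39 and -2.51 with EPO, and rose by 2.25 ± 0.29 (SE) on the log2 scale (adjusted p = 0.0224, 0.129 with the block). For Sesn2 the adjusted p was 0.0607 to 0.08 without unchallenged array 1, 3 or 4 or EPO array 2 or 3 and 0.0661 after quantile normalization.

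Among 21 enzymes of proline, asparagine and glutamine metabolism 2 were higher, Chac1 and Pycrl, a reductase of proline synthesis, with a median of -0.05. Pycrl rose by 0.70 (adjusted p = 0.0213, 0.181 with the block) from 0.00, -0.41, -0.18 and -0.14 to 0.44, 0.61, 0.55 and 0.45. For Pycrl the adjusted p was 0.0564 to 0.0856 without unchallenged array 3 or 4 or EPO array 2, 3 or 4. In the list of 51 genes of the unfolded protein response of the endoplasmic reticulum 1 rose and 1 fell (median 0.09). Herpud1, which serves degradation of misfolded proteins, rose by 1.54 (adjusted p = 0.0239, 0.148 with the block) and Crebrf, a negative partner of the factor CREB3, fell by 1.71 (adjusted p = 0.0254, 0.188 with the block). For Herpud1 the adjusted p was 0.0558 to 0.0864 without unchallenged array 1, 2 or 3 or EPO array 3 or 4, and for Crebrf 0.0533 to 0.0921 without any 1 array other than unchallenged replicate 1.

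Promoters of called genes were searched because many ATF4 targets hold a composite site for ATF4 and C/EBP. The letters TGATGNAA were looked for on both strands in the 250 bases before the start site, in RefSeq windows of the mouse build GRCm38.p6. They stood in 4.0% of 201 windows of genes called higher (8 windows), in 3.9% of 77 windows of genes called lower (3 windows), in 2.4% of 18109 windows of all genes with a value and in 3.5% of all 32851 windows. A match is a description of the letters and not a binding site. The matches of 5 genes that rose are printed for comparison, each in the 5′ to 3′ direction of its gene with the matching letters in capitals. All 5 hold the motif on the strand opposite to the gene, so that they read as its complement.
Nupr1, chr7:126625562-126625590, minus strand: aagggccagaTTGCATCAgacagggcttg
Chac1, chr2:119351039-119351067, plus strand: ttccctgccgTTGCATCActcctgccagg
Herpud1, chr8:94386307-94386335, plus strand: ccacggcgggTTGCATCAgcccgcacccc
Gars, chr6:55037961-55037989, plus strand: ggctgcgctaTTTCATCAtgcaccgggcg
Tars, chr15:11399659-11399687, minus strand: ggccaggagtcccgTTGCATCAgctggtt
The search lets matches differ only at the free position, where Gars differs from Nupr1, Chac1, Herpud1 and Tars. Tnfaip3, which fell, also held a match that is not printed. The distance from the motif to the start site was 102 bases in Nupr1, 185 in Chac1, 104 in Herpud1, 22 in Gars and 7 in Tars.

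**Figure D2:**
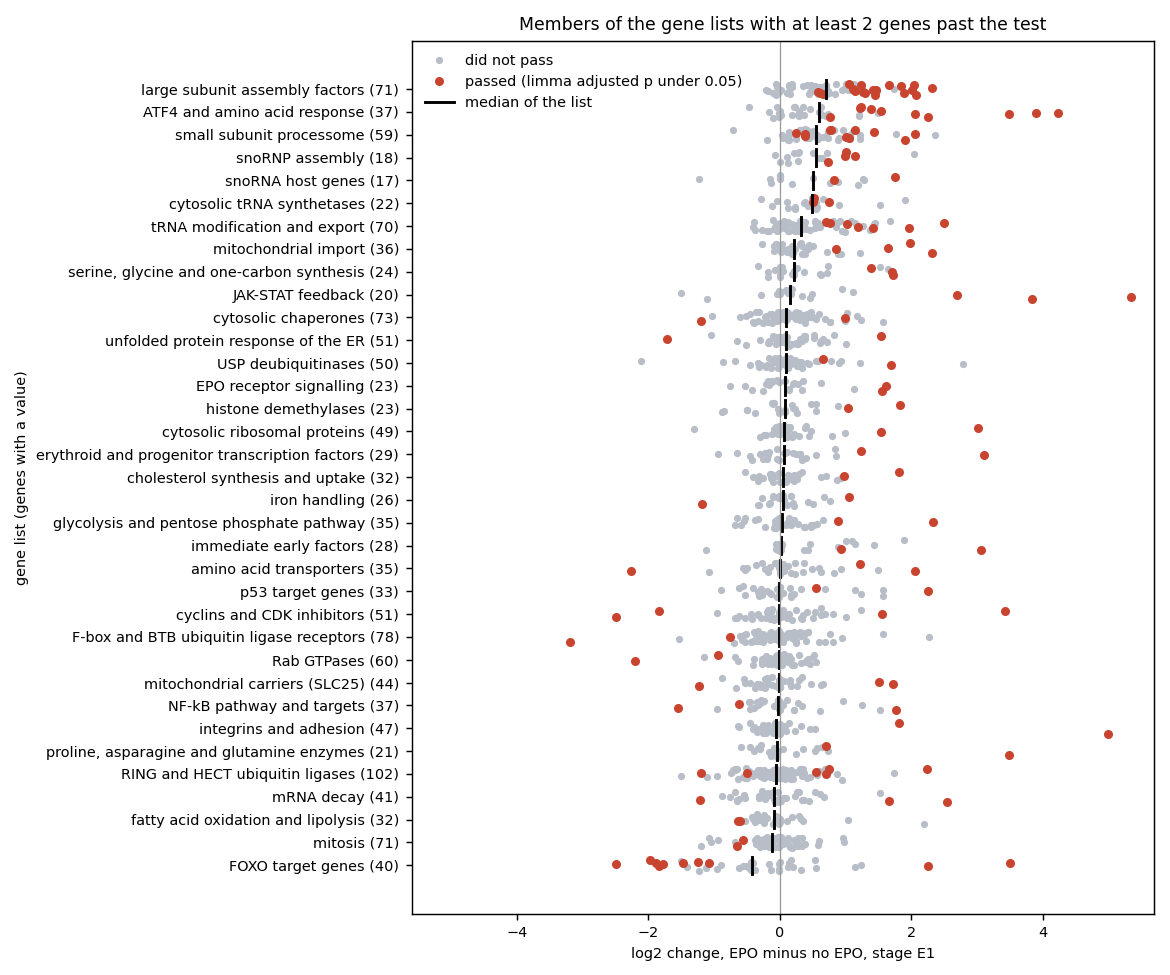
Log2 change with EPO in stage E1 (x axis) for every member of each gene list with at least 2 genes past the test (rows, with the number of genes that have a value), where red points passed limma's adjusted p under 0.05, grey points did not, and black bars are list medians. Lists of ribosome assembly and the ATF4 response have their median right of 0 (0.70, 0.55, 0.55 and 0.60), and FOXO target genes have it at -0.43.

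Genes of mitochondrial import rose in a way that depended little on any 1 array. Proteins made in the cytosol enter mitochondria through import channels, and in the intermembrane space small Tim chaperones carry hydrophobic cargo while Chchd4 (MIA40) locks small proteins in place by oxidizing their cysteines. Of 36 import genes 4 were higher and none lower, 3 of the 4 with the block, and 4 or 5 were higher whichever array was left out. The list median was 0.22, and 32 members did not pass.

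Timm9 stood at 0.12, 0.15, 0.03 and -0.11 in the unchallenged arrays and at 2.35, 2.33, 2.45 and 2.31 in the EPO arrays. The arrays of each group lay close together and the groups far apart. Timm9 rose by 2.31 ± 0.063 (SE) on the log2 scale (adjusted p = 7.44e-05, 0.0206 with the block), 4.96-fold, in 1 of its 2 probe sets. Timm10, its partner in the chaperone complex, stood at -1.53, -0.91, -0.90 and -1.12 without EPO and at 0.29, 0.69, 0.52 and 0.65 with EPO. It rose by 1.65 ± 0.16 (SE) on the log2 scale (adjusted p = 0.00802, 0.0495 with the block). Timm8a1, a related small Tim protein, moved from 0.89, 0.85, 0.85 and 0.78 to 1.55, 1.84, 1.71 and 1.71, a rise of 0.86 (adjusted p = 0.00325, 0.0677 with the block) in 1 of 2 probe sets.

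Chchd4 stood at 0.14, -0.11, 0.29 and 0.22 without EPO and at 2.12, 2.01, 2.15 and 2.15 with EPO. The EPO arrays were nearly level and lay well above all unchallenged arrays. Chchd4 rose by 1.97 ± 0.089 (SE) on the log2 scale (adjusted p = 0.000632, 0.0206 with the block). These 4 genes were called with any 1 array left out, and Timm9, Chchd4 and Timm10 also with the block. The windows before the start of several genes that rose hold either of a pair of motifs. The STAT letters TTCNNNGAA stood in 5.5% of windows of genes called higher, 11.7% of genes called lower, 6.2% of all genes with a value and 7.0% of all windows. The Myc E-box CACGTG stood in 12.4%, 7.8%, 7.4% and 6.0%. Matches in mitochondrial genes that rose are printed with the motif in capitals.
Chchd4, STAT letters, chr6:91473581-91473609, minus strand: gctgcaagatTTCTGGGAAatgtagtatc
Timm9, E-box, chr12:71136716-71136744, minus strand: ctacattttccCACGTGgtaacgaatctg
Timm8a1, E-box, chrX:134541889-134541917, minus strand: cttcagtggacCACGTGggatgaagcaac
Slc25a33, E-box, chr4:149774268-149774296, minus strand: acgtcacggcccggcctccgcCACGTGac
The FOXO letters GTAAACA stood in 2.0% of windows of genes called higher and 5.2% of genes called lower, against 2.6% of all genes with a value and 3.2% of all windows. For the EGR letters GCGGGGGCG the shares were 6.5%, 5.2%, 4.0% and 2.6%.

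Carriers of the inner mitochondrial membrane moved in both directions. Of 44 SLC25 carriers 2 were higher and 1 lower, with a median of -0.02. Slc25a33, a carrier of pyrimidine nucleotides, stood at -1.57, -1.81, -1.27 and -1.20 without EPO and at 0.03, 0.01, -0.02 and 0.15 with EPO. It rose by 1.51 ± 0.14 (SE) on the log2 scale (adjusted p = 0.00609, 0.0664 with the block). Slc25a32, which carries folate into mitochondria, rose by 1.72 (adjusted p = 0.0243, 0.0681 with the block) in 2 of 3 probe sets. Slc25a51, the carrier of NAD, stood at -0.06, -0.60, -0.31 and -0.36 without EPO and at -1.65, -1.17, -1.67 and -1.74 with EPO, and fell by 1.22 (adjusted p = 0.0224, 0.183 with the block). For Slc25a32 the adjusted p was 0.0592 to 0.0921 without unchallenged array 1, 2 or 3 or EPO array 2, 3 or 4, and for Slc25a51 0.0568 to 0.0868 without unchallenged array 1, 3 or 4 or EPO array 1, 3 or 4 and 0.0517 after quantile normalization. The proteins of the mitochondrial ribosome had 1 of 77 members called, Mrpl41, which rose by 0.49 (adjusted p = 0.0125, 0.0664 with the block), and a median of 0.13. For Mrpl41 the adjusted p was 0.0516 to 0.0519 without unchallenged array 3 or EPO array 3 and 0.0536 after quantile normalization. None of 67 respiratory chain subunits or of 26 TCA cycle genes passed (medians 0.02 and -0.03).

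Folate and one-carbon metabolism supplies carbon units for purine, thymidine and methionine. Of 24 genes for serine, glycine and one-carbon synthesis 3 were higher and none lower, with a median of 0.22 and none past the test with the block. Slc19a1, the carrier of reduced folate at the cell surface, stood at 1.41, 1.80, 1.72 and 1.31 without EPO and at 3.01, 3.71, 3.18 and 3.18 with EPO. All EPO arrays were above all unchallenged ones, and the gene rose by 1.71 ± 0.18 (SE) on the log2 scale (adjusted p = 0.0107, 0.0516 with the block) in 2 of 3 probe sets. The mitochondrial folate enzyme Mthfd2 moved from -1.39, -1.13, -1.65 and -1.92 to -0.02, 0.02, -0.25 and -0.29, a rise of 1.39 (adjusted p = 0.0197, 0.0554 with the block) in both probe sets. The carrier Slc25a32 was the third. For Mthfd2 the adjusted p was 0.0526 to 0.0738 without unchallenged array 1 or 3 or EPO array 1, 2, 3 or 4 and 0.0558 after quantile normalization, and the list's count was 1 and 1 without unchallenged replicate 1 and 3 and 1, 1 and 1 without EPO replicate 2, 3 and 4.

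In polyamine synthesis (17 genes, median 0.32) only Srm passed. Srm, spermidine synthase, stood at -0.26, 0.26, 0.85 and 0.92 without EPO and at 2.74, 2.30, 2.82 and 2.82 with EPO. It rose by 2.23 ± 0.28 (SE) on the log2 scale (adjusted p = 0.0205, 0.0988 with the block). For Srm the adjusted p was 0.054 to 0.083 without unchallenged array 2 or EPO array 1, 3 or 4. None of 38 purine and pyrimidine synthesis genes passed (median 0.20), with Dctd at 1.33 and Gmps at 1.23 as the largest changes (adjusted p = 0.388 and 0.352).

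Among genes of fuel use, a pair for glucose breakdown rose and a pair for fatty acid oxidation fell. Over all genes 1.13% were higher and 0.396% lower. In each pair 1 gene (Hk2 and Cpt1a) was called whichever array was left out, and the other was not. Hk2, the hexokinase that commits glucose to the cell, stood at 2.20, 1.69, 1.97 and 1.94 in the unchallenged arrays and at 4.23, 4.70, 4.27 and 3.96 in the EPO arrays. Every EPO array was far above the unchallenged ones. Hk2 rose by 2.34 ± 0.17 (SE) on the log2 scale (adjusted p = 0.00351, 0.0807 with the block), 5.06-fold, and passed whichever array was left out. Pfkp, a phosphofructokinase, rose by 0.88 (adjusted p = 0.0461, 0.181 with the block) in 1 of 3 probe sets. For Pfkp the adjusted p was 0.0591 to 0.143 without any 1 of the 8 arrays, 0.123 after quantile normalization, 0.0551 with arrays centred on their medians, 0.0516 with limma's trend and robust options, 0.216 for the mean of its probe sets and 0.052 by the methods' t-test after adjustment. Those 2 were the only members of 35 glycolysis and pentose phosphate genes to pass, and the list median was 0.04.

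Of 32 genes for fatty acid oxidation and lipolysis 2 fell and none rose, with a median of -0.09. Cpt1a and Cpt2 are the outer and inner membrane enzymes that bring fatty acids into mitochondria on carnitine. Cpt1a stood at 0.58, 0.59, 0.62 and 0.58 without EPO and at -0.02, -0.20, 0.03 and 0.02 with EPO. The unchallenged arrays were almost level, and Cpt1a fell by 0.63 ± 0.052 (SE) on the log2 scale (adjusted p = 0.00439, 0.067 with the block) in 2 of 3 probe sets. Cpt2 fell by 0.60 (adjusted p = 0.0409, 0.206 with the block). For Cpt2 the adjusted p was 0.0516 to 0.133 without any 1 array other than EPO replicate 1 and 0.0562 with arrays centred on their medians. In fatty acid and phospholipid synthesis no gene of 46 passed (median 0.00), with Lpin1 at -1.44 (adjusted p = 0.157) and Agpat5 at 1.35 (0.305). Of 32 genes of cholesterol synthesis and uptake 2 rose, Lrp8, a receptor of the LDL receptor family, and Erlin1, a lipid raft protein of the endoplasmic reticulum (median 0.05). Lrp8 rose by 1.81 (adjusted p = 0.0253, 0.148 with the block) and Erlin1 by 0.97 (adjusted p = 0.012, 0.0576 with the block). For Lrp8 the adjusted p was 0.0531 to 0.097 without unchallenged array 1, 2 or 4 or EPO array 1, 2 or 3, and for Erlin1 0.0516 without EPO array 3.

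The falls gathered most in FOXO target genes. FOXO factors drive genes for cell cycle arrest, death and stress defence when PI3K-AKT signalling is low. Of 40 such genes 8 were lower, 2 higher and 30 did not pass, with a median log2 change of -0.43, and -0.27 over the 32 outside the study's text. Array medians of the list were 0.02, 0.05, -0.04 and -0.01 without EPO and -0.37, -0.45, -0.37 and -0.34 with EPO. The count of 8 lower fell to 5, 5 and 5 without unchallenged replicate 2, 3 and 4 and 4 and 5 without EPO replicate 3 and 4, and that of 2 higher to 1, 1 and 1 without unchallenged replicate 1, 3 and 4 and 1 and 1 without EPO replicate 2 and 3. No member passed with the block in either direction. The study's text names 8 of these 40 genes, so their direction is not independent evidence. Of the 32 members outside it only 2 were called lower and 1 higher.

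Sesn3, a sestrin that holds back mTORC1 and is a classic FOXO target, was the largest called fall of the list outside the study's text. Sesn3 stood at 1.98, 2.41, 1.80 and 1.92 in the unchallenged arrays and at 0.26, 0.36, 0.40 and -0.01 in the EPO arrays. All unchallenged arrays lay far above all EPO arrays. Sesn3 fell by 1.78 ± 0.15 (SE) on the log2 scale (adjusted p = 0.00514, 0.066 with the block) in 1 of 2 probe sets and passed whichever array was left out. The cell cycle inhibitor Cdkn1b and the death gene Bcl2l11 fell by 1.84 and 1.88 (adjusted p = 0.00364 and 0.00683, 0.0677 and 0.0661 with the block). Irs2, an adaptor of the insulin receptor that FOXO also drives, went against the list. It stood at -1.93, -2.84, -1.23 and -2.14 without EPO and at 1.32, 1.86, 1.19 and 1.50 with EPO and rose by 3.50 ± 0.34 (SE) on the log2 scale (adjusted p = 0.00802, 0.122 with the block).

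Irs2 was also the only one of 30 genes for PI3K and insulin signalling to pass (median 0.01). Among 23 genes of EPO receptor signalling Gab2, an adaptor that binds PI3K, and Pik3cb, a catalytic subunit, rose by 1.56 and 1.61 (adjusted p = 0.00436 and 0.0319, 0.088 and 0.0502 with the block), and the median was 0.08. For Pik3cb the adjusted p was 0.0593 to 0.112 without any 1 array other than unchallenged replicate 1 and 0.0761 after quantile normalization. In JAK-STAT feedback 3 of 20 genes rose, Cish, Socs2 and Socs3, inhibitors that STAT5 itself induces, by 5.35, 3.84 and 2.70 (median 0.15). With the block their adjusted p were 0.0206, 0.0681 and 0.0538. In ERK feedback 1 of 20 rose, Spred1, which restrains Ras, by 2.61 (adjusted p = 0.0126, 0.0942 with the block) (median 0.00).

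**Figure D3:**
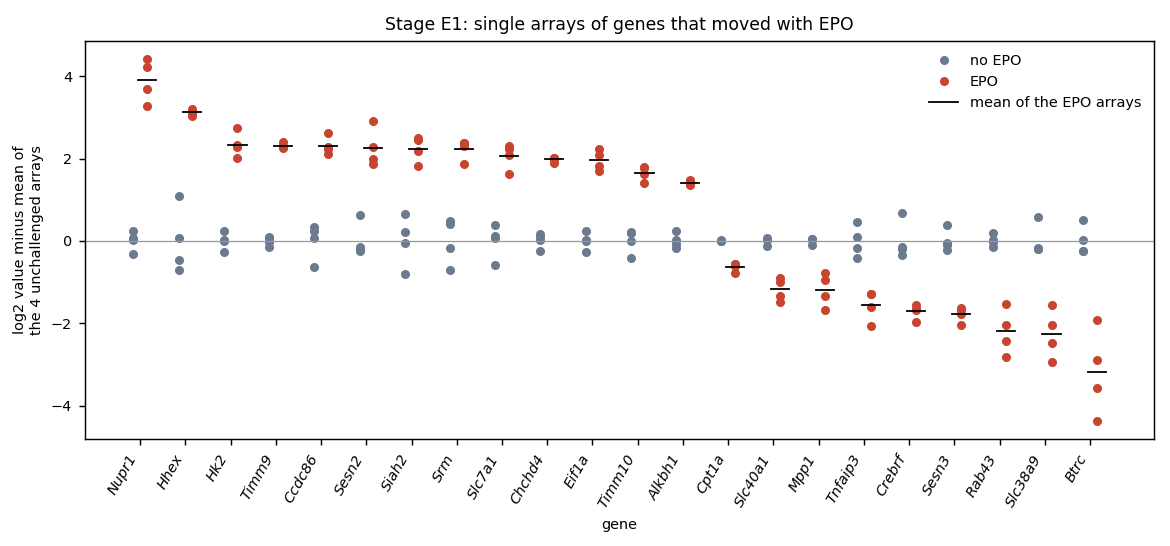
Values of selected genes in each of the 8 stage E1 arrays (y axis, log2 value minus the mean of the 4 unchallenged arrays; each point is 1 array, and black lines are the means of the EPO arrays). Within each gene the 4 EPO arrays and the 4 unchallenged arrays do not overlap, which holds for all 277 called genes and so is no added support.

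Protein turnover genes changed singly and in both directions. Ubiquitin ligases mark proteins for destruction, and F-box proteins choose the targets of one large class. Of 78 F-box and BTB receptors 2 fell and none rose (median -0.02). Btrc, the F-box protein that recognizes beta-catenin and the NF-kB inhibitor IkB, stood at 0.00, 0.49, -0.26 and -0.25 without EPO and at -4.39, -3.58, -2.90 and -1.93 with EPO. The EPO arrays were widely spread but all lay below the unchallenged ones. Btrc fell by 3.19 ± 0.52 (SE) on the log2 scale (adjusted p = 0.0459, 0.208 with the block) in 1 of 5 probe sets. For Btrc the adjusted p was 0.0536 to 0.13 without any 1 array other than EPO replicate 4, 0.0531 after quantile normalization, 0.0579 with arrays centred on their medians, 0.0506 with limma's trend and robust options and 0.052 by the methods' t-test after adjustment. Klhl12, a BTB receptor involved in secretory vesicle size, was much steadier, at 0.47, 0.40, 0.47 and 0.39 without EPO and -0.32, -0.16, -0.37 and -0.42 with EPO, and fell by 0.75 ± 0.056 (SE) on the log2 scale (adjusted p = 0.00364, 0.0664 with the block).

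Of 102 RING and HECT ligases 4 rose and 2 fell (median -0.06, none with the block). Siah2, a ligase of hypoxia and stress signalling, stood at -2.04, -1.03, -0.58 and -1.30 without EPO and at 1.26, 1.21, 0.94 and 0.59 with EPO. It rose by 2.24 ± 0.32 (SE) on the log2 scale (adjusted p = 0.0307, 0.171 with the block) in both probe sets. Trim35 rose by 0.70 (adjusted p = 0.0245, 0.116 with the block), Trim10, a ligase of late erythroid cells, fell by 0.49 (adjusted p = 0.0272, 0.0516 with the block) and Rnf141 fell by 1.20 (adjusted p = 0.00609, 0.0745 with the block). The other two rises were those of Trim27 and Rnf19b, at 0.54 and 0.75 (adjusted p = 0.034 and 0.0493). The count of 4 higher was 0 when unchallenged array 2 or 4 or EPO array 3 or 4 was left out, 1 or 2 for the other arrays and 1 after quantile normalization. The count of 2 lower was 1 when unchallenged array 3 or 4 or EPO array 2, 3 or 4 was left out, and also after quantile normalization. For Siah2 the adjusted p was 0.063 to 0.105 without unchallenged array 2 or 4 or EPO array 1, 2, 3 or 4. For Trim35 it was 0.0606 to 0.0802 without any 1 array other than EPO replicate 1 and 0.133 after quantile normalization, and for Trim10 0.0591 to 0.101 without unchallenged array 3 or 4 or EPO array 2, 3 or 4 and 0.273 after quantile normalization. Of 50 USP deubiquitinases 2 rose, Usp12 by 1.69 (adjusted p = 0.0385, 0.142 with the block) and Uspl1 by 0.65 (adjusted p = 0.0417, 0.175 with the block) (median 0.09). For Usp12 the adjusted p was 0.0782 to 0.132 without unchallenged array 1 or 4 or EPO array 1, 2, 3 or 4, and for Uspl1 0.0782 to 0.14 without any 1 array other than unchallenged replicate 4, 0.0644 after quantile normalization and 0.0605 with arrays centred on their medians. Of 73 cytosolic chaperones Bag5, a regulator of HSP70, rose by 0.99 (adjusted p = 0.0103, 0.113 with the block) and Dnajb4, an HSP40 protein, fell by 1.20 (adjusted p = 0.034, 0.0426 with the block) (median 0.10). For Dnajb4 the adjusted p was 0.0726 to 0.104 without any 1 array other than EPO replicate 1 and 0.152 after quantile normalization.

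Membrane traffic contributed a pair of falls among 60 Rab GTPases (median -0.02), the small switches that direct vesicles. Rab43 stood at -0.03, -0.08, 0.13 and -0.21 without EPO and at -2.47, -2.09, -1.59 and -2.87 with EPO. The groups did not overlap, and Rab43 fell by 2.21 ± 0.26 (SE) on the log2 scale (adjusted p = 0.0158, 0.0747 with the block) in 1 of 3 probe sets. Rab5b, of early endosomes, fell by 0.94 (adjusted p = 0.0206, 0.0838 with the block). For Rab43 the adjusted p was 0.0521 to 0.0611 without unchallenged array 1, 2 or 3, and for Rab5b 0.0524 to 0.0674 without unchallenged array 1, 2 or 3. No gene passed among 52 lysosome genes (median -0.04), 48 autophagy genes (-0.11) or 45 proteasome genes (0.04). The largest changes there were those of Ctso at -0.96 (adjusted p = 0.364), Scarb2 at -0.94 (0.109), Tax1bp1 at -1.13 (0.402), Map1lc3a at 0.99 (0.855), Psmd9 at -1.17 (0.0781) and Psme3 at 0.80 (0.706).

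Few cell division genes passed the test. Of 51 cyclins and inhibitors of their kinases 2 rose and 2 fell (median -0.01). Ccnd2, the cyclin that starts the cycle, rose by 3.43 (adjusted p = 0.000632, 0.0206 with the block) and Ccnb1ip1 by 1.56 (adjusted p = 0.0125, 0.0882 with the block), while the inhibitor Cdkn1b and the arrest-linked Ccng2 fell by 1.84 and 2.50 (0.0677 and 0.0642 with the block). For the mean of its 2 probe sets the adjusted p of Cdkn1b was 0.0698. For Ccnb1ip1 the adjusted p was 0.0567 without EPO array 3 and 0.0611 after quantile normalization. Of 71 mitosis genes 2 fell and none rose (median -0.11). Nusap1, a spindle protein, stood at -0.47, -0.45, -0.26 and -0.28 without EPO and at -0.90, -0.98, -0.85 and -0.98 with EPO and fell by 0.57 ± 0.062 (SE) on the log2 scale (adjusted p = 0.0123, 0.0845 with the block). For the mean of its 2 probe sets the adjusted p was 0.0703. Cenpl, of the kinetochore, fell by 0.65 (adjusted p = 0.0424, 0.066 with the block). For Cenpl the adjusted p was 0.0607 to 0.125 without any 1 array other than EPO replicate 1 and 0.0634 with arrays centred on their medians.

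DNA replication (53 genes, median -0.10) had 1 fall. Pole, the catalytic subunit of the leading strand polymerase, stood at 0.87, 0.82, 0.75 and 0.76 without EPO and at 0.49, 0.39, 0.48 and 0.39 with EPO. The change was small beside most others but the groups did not overlap. Pole fell by 0.36 ± 0.039 (SE) on the log2 scale (adjusted p = 0.0117, 0.0831 with the block). After quantile normalization its adjusted p was 0.0724. Neil3, a glycosylase that repairs oxidized bases, stood at 0.18, 0.66, -0.01 and 0.06 without EPO and at -1.56, -1.0, -1.53 and -1.31 with EPO. It fell by 1.58 ± 0.19 (SE) on the log2 scale (adjusted p = 0.0158, 0.0456 with the block), 1 of the 3 called falls that also passed with the block. For Neil3 the adjusted p was 0.0543 to 0.0654 without unchallenged array 1 or EPO array 3 or 4. In p53 targets (33 genes, median -0.01) Sesn2 and Triap1, an inhibitor of apoptosome formation, rose, the latter by 0.55 (adjusted p = 0.0264, 0.165 with the block). For Triap1 the adjusted p was 0.0614 to 0.0926 without any 1 array other than EPO replicate 2 and 0.0709 after quantile normalization. Of 43 apoptosis genes only Bcl2l11 passed (median -0.01).

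Among transcription factors of progenitors Hhex, the haematopoietically expressed homeobox repressor, rose the most outside the study's text. Hhex stood at 0.75, -0.03, 0.20 and 1.77 without EPO and at 3.70, 3.78, 3.88 and 3.78 with EPO. The EPO arrays were almost level while the unchallenged arrays were spread widely. Hhex rose by 3.11 ± 0.38 (SE) on the log2 scale (adjusted p = 0.0165, 0.117 with the block), 8.65-fold. For Hhex the adjusted p was 0.0573 to 0.0704 without unchallenged array 1 or 3 or EPO array 3 or 4. Lyl1, a helix-loop-helix transcription factor, rose by 1.24 (adjusted p = 0.00325, 0.042 with the block). The other 27 of 29 factors did not pass and the median was 0.06.

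Immediate early factors (28 genes, median 0.02) had 2 rises, Egr1 by 3.06 (adjusted p = 0.0129, 0.0845 with the block) and Srf, which drives growth-factor-induced genes, by 0.93 (adjusted p = 0.0306, 0.223 with the block). For Egr1 the adjusted p was 0.0513 to 0.0577 without unchallenged array 1 or EPO array 3, and for Srf 0.0516 to 0.108 without any 1 array other than unchallenged replicate 4, 0.0688 after quantile normalization and 0.151 for the mean of its probe sets. Nab2 binds EGR factors and represses their activity. It stood at -0.94, -1.45, -0.82 and -0.92 without EPO and at 0.82, 1.57, 2.72 and 2.18 with EPO, and rose by 2.85 ± 0.41 (SE) on the log2 scale (adjusted p = 0.0296, 0.12 with the block). For Nab2 the adjusted p was 0.0607 to 0.0928 without any 1 array other than EPO replicate 1. Myc was the only one of 15 genes of its network to pass, with a rise of 2.59 (adjusted p = 0.00852, 0.0899 with the block) (median 0.00), and Klf3 the only one of 16 Kruppel-like factors, with a fall of 1.98 (adjusted p = 0.0156, 0.113 with the block) (median -0.01). For Klf3 the adjusted p was 0.0508 to 0.0642 without unchallenged array 1, 2, 3 or 4 or EPO array 3 or 4.

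In the NF-kB pathway (37 genes, median -0.02) 2 genes fell and 1 rose. Tnfaip3 (A20), the enzyme that ends NF-kB signalling, stood at 0.12, 0.36, 0.99 and 0.63 without EPO and at -1.53, -1.07, -0.76 and -0.75 with EPO. It fell by 1.55 ± 0.25 (SE) on the log2 scale (adjusted p = 0.0435, 0.0502 with the block). Tnfaip2 fell by 0.63 (adjusted p = 0.0224, 0.0711 with the block), and Traf5, an adaptor of TNF receptors, rose by 1.76 (adjusted p = 0.0249, 0.148 with the block). For Tnfaip3 the adjusted p was 0.0614 to 0.118 without any 1 of the 8 arrays and 0.0585 with arrays centred on their medians. For Tnfaip2 it was 0.0599 to 0.0878 without unchallenged array 1, 2, 3 or 4 or EPO array 3 or 4, and for Traf5 0.0558 to 0.083 without unchallenged array 1 or 3 or EPO array 1, 2, 3 or 4. Tnfrsf21, death receptor DR6, stood at -1.98, -1.99, -2.41 and -3.89 without EPO and at 0.58, 1.31, 0.40 and 0.81 with EPO and rose by 3.34 ± 0.46 (SE) on the log2 scale (adjusted p = 0.0271, 0.134 with the block). For Tnfrsf21 the adjusted p was 0.0538 to 0.0878 without any 1 array other than unchallenged replicate 4. In the interferon response (54 genes, median -0.01) Irf9, a subunit of the factor ISGF3, was the only one called, with a rise of 0.81 (adjusted p = 0.0417, 0.148 with the block). For Irf9 the adjusted p was 0.0897 to 0.14 without unchallenged array 1, 2 or 3 or EPO array 2, 3 or 4 and 0.0577 with arrays centred on their medians.

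Regulators of RNA and chromatin moved in small numbers. In mRNA decay (41 genes, median -0.09) the deadenylase Noct rose by 2.55 (adjusted p = 0.00175, 0.0436 with the block), Cnot4, a ligase tied to the CCR4-NOT complex, rose by 1.66 (adjusted p = 0.0245, 0.108 with the block) and Pnrc1 fell by 1.21 (adjusted p = 0.00693, 0.066 with the block) in 1 of 3 probe sets. For Cnot4 the adjusted p was 0.0516 to 0.0679 without unchallenged array 2, 3 or 4 or EPO array 2, 3 or 4 and 0.212 for the mean of its probe sets. Clk1, a kinase of splicing factors, was the only one of 28 SR proteins and CLK kinases to pass and fell by 1.08 (adjusted p = 0.0117, 0.0675 with the block) (median 0.22). Of 23 histone demethylases and related oxygenases Riox1 rose by 1.84 (adjusted p = 0.034, 0.128 with the block) and Jmjd6 by 1.04 (adjusted p = 0.0427, 0.145 with the block) (median 0.08). For Riox1 the adjusted p was 0.069 to 0.12 without any 1 array other than unchallenged replicate 1 and 0.0506 after quantile normalization, and for Jmjd6 0.0781 to 0.127 without any 1 array other than unchallenged replicate 4 and 0.126 after quantile normalization. The polycomb protein Pcgf3 rose by 1.15 (adjusted p = 0.00739, 0.106 with the block), alone among 39 histone methyltransferases and polycomb genes (median 0.19). For the mean of its 3 probe sets the adjusted p was 0.0956. Brpf3, a scaffold of histone acetyltransferases, stood at -1.81, -1.73, -1.34 and -1.62 without EPO and at -2.89, -2.77, -3.12 and -3.09 with EPO. It fell by 1.34 ± 0.12 (SE) on the log2 scale (adjusted p = 0.00647, 0.113 with the block), without overlap and whichever array was left out.

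Few red cell genes passed the test. Of 24 genes of the red cell membrane and skeleton 1 fell (median -0.08). Mpp1 (p55), which ties the skeleton to glycophorin C, stood at -0.13, 0.01, -0.01 and 0.02 without EPO and at -1.37, -0.81, -1.71 and -0.99 with EPO, and fell by 1.19 ± 0.19 (SE) on the log2 scale (adjusted p = 0.0446, 0.148 with the block). For Mpp1 the adjusted p was 0.0545 to 0.133 without any 1 array other than EPO replicate 2, 0.0698 after quantile normalization, 0.0579 with arrays centred on their medians and 0.0509 by the methods' t-test after adjustment. In iron handling (26 genes, median 0.04) 1 gene rose and 1 fell. Slc40a1, the iron exporter ferroportin, stood at 0.99, 0.96, 0.97 and 0.80 without EPO and at 0.04, -0.08, -0.41 and -0.55 with EPO. It fell by 1.18 ± 0.14 (SE) on the log2 scale (adjusted p = 0.0138, 0.0724 with the block) in both probe sets. Slc39a10, a zinc importer and the only one called of 33 zinc and metal transporters (median 0.11), rose by 1.06 (adjusted p = 0.0444, 0.045 with the block). For Slc40a1 the adjusted p was 0.0546 to 0.0567 without unchallenged array 1 or 3 or EPO array 3, and for Slc39a10 0.0879 to 0.13 without any 1 array other than EPO replicate 1, 0.0854 after quantile normalization, 0.0616 with arrays centred on their medians and 0.0505 by the methods' t-test after adjustment.

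In haem synthesis and transport (23 genes, median -0.15) Abcg2, a porphyrin exporter, rose by 0.79 (adjusted p = 0.0417, 0.188 with the block). For Abcg2 the adjusted p was 0.0842 to 0.115 without any 1 array other than unchallenged replicate 3 and 0.125 after quantile normalization. None of 6 globin genes passed (median -0.10). Hba-a2 stood at 2.27, 1.37, 1.05 and 1.0 without EPO and at 0.05, 0.24, -0.17 and 0.74 with EPO, and its change of -1.21 had an adjusted p of 0.23. Hbb-b2 changed by -0.30 (0.765).

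Markers that define the selected cells did not pass either. Of the 8 erythroid defining markers with a value, Kit changed by -0.33 and Tfrc (CD71) by 0.67 (adjusted p = 0.784 and 1). Kit stood 3.13 to 4.10 above its constant in stage E1 and -0.42 to 0.08 in stage E2, the order that the Kit selection and depletion give. Tfrc, whose protein was selected for in both stages, went the other way, at -2.96 to -0.49 in E1 and -0.29 to 0.94 in E2. The mean over all 8 markers, Kit included, was also lower in E1. It was -1.24 to -1.15 in unchallenged E1 arrays, -1.53 to -1.01 in EPO-challenged E1 arrays and -0.10 to 0.40 in E2 arrays. Markers of other blood cells stood at unequal distances from their constants in the 2 stages, where a value near 0 does not mean that a transcript is absent. The mean over 24 neutrophil and monocyte markers was 2.96 to 3.40 in unchallenged E1 arrays, 2.73 to 3.04 in EPO-challenged E1 arrays and -0.08 to -0.05 in E2 arrays, and Mpo was 9.06 to 9.88 in E1 and -0.08 to -0.01 in E2. Mast cell and basophil markers (13 genes) gave 1.47 to 1.77, 1.44 to 1.80 and -0.10 to 0.06. Over same-numbered arrays the neutrophil and monocyte mean was lower with EPO in all 4 pairs, at 3.40 and 3.04, 3.07 and 3.01, 3.04 and 2.84, and 2.96 and 2.73. The change was above 0 in 4 of these 24 markers, against 40.7% of all genes. Between the E1 groups the ranges of both lists overlapped and no marker of the neutrophil, mast cell, megakaryocyte, B cell or T and NK cell lists passed (medians -0.21, -0.02, -0.02, -0.01 and -0.01). The largest changes in each list were those of Gp5 at 1.88 (adjusted p = 0.17), Gp9 at -1.46 (0.165), Ccr2 at -0.83 (1), Csf1r at -0.78 (1), Ms4a2 at -0.66 (0.725), Cma1 at 0.57 (0.613), Lat at 0.46 (0.373), Nkg7 and Ptprc at 0.42 and -0.42 (0.985 and 0.871) and Ighm at 0.22. Their part in the results was not tested. In such samples, fewer cells of a type and less RNA per cell cannot be told apart.

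Adhesion and cytoskeleton genes gave few but large rises. Of 47 integrins and adhesion genes Podxl, a sialomucin, rose by 4.99 (adjusted p = 0.00265, 0.0259 with the block) and Tspan14, a tetraspanin, by 1.81 (adjusted p = 0.00802, 0.0705 with the block) (median -0.05). Plek2 alone of 68 actin regulators rose, by 2.50 (adjusted p = 0.00364, 0.0912 with the block) (median 0.02). Of 53 growth factors, cytokines and their receptors and 17 circadian clock genes none passed (medians -0.01 and 0.06). Vegfa changed by 1.98 (adjusted p = 0.0771), Ifngr2 by 1.10 (0.479), Per2 by 1.74 (0.258) and Bhlhe40 by 0.88 (0.164). In the respiratory chain the largest were Atp5a1 at -0.97 (0.959) and Ndufa12 at -0.89 (0.23), and in the TCA cycle Pcx at 1.04 (0.288) and Idh1 at -0.34 (0.949). For Ndufa12 the test was passed without unchallenged replicate 1.

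The remaining genes with the largest changes outside the study's text belong to none of the lists. The probe set that the platform annotation names Mir1949 stood at -0.12, -0.13, 0.43 and 1.34 without EPO and at 3.23, 4.38, 4.67 and 4.66 with EPO, and rose by 3.85 ± 0.46 (SE) on the log2 scale (adjusted p = 0.0154, 0.066 with the block). Fam124a stood at -1.78, -0.63, -0.97 and -0.43 without EPO and at 1.62, 1.94, 1.95 and 1.77 with EPO, and rose by 2.77 ± 0.29 (SE) on the log2 scale (adjusted p = 0.0103, 0.0711 with the block). Treml2, an immunoglobulin-like receptor, moved from -1.35, -0.84, -0.98 and -0.87 to 1.78, 1.38, 0.80 and 0.82, a rise of 2.20 (adjusted p = 0.0126, 0.14 with the block). The carboxypeptidase Cpd and the mitochondrial kinase anchor Akap1 rose by 2.19 and 2.18 (adjusted p = 0.0433 and 0.0488, 0.154 and 0.107 with the block). Grtp1, a TBC domain protein, stood at -2.39, -3.41, -2.39 and -2.57 without EPO and at -0.32, -0.64, -0.81 and -0.30 with EPO and rose by 2.17 (adjusted p = 0.0154, 0.0942 with the block) in 1 of 2 probe sets. For Grtp1 the adjusted p was 0.0543 without EPO array 4. For Mir1949 it was 0.0537 to 0.063 without unchallenged array 1 or 3 or EPO array 3 or 4, and for Treml2 0.0518 without unchallenged array 3. For Cpd it was 0.0532 to 0.131 without any 1 array other than EPO replicate 1, 0.0668 after quantile normalization and 0.0516 with arrays centred on their medians, and for Akap1 0.0733 to 0.164 without any 1 array other than unchallenged replicate 4, 0.0831 after quantile normalization, 0.0628 with arrays centred on their medians, 0.0536 with limma's trend and robust options, 0.0659 for the mean of its probe sets and 0.0546 by the methods' t-test after adjustment.

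Falls of this kind were those of Katnal1, a subunit of the microtubule-severing enzyme katanin, Bbs7, of the BBSome that serves cilia, the zinc finger gene Zfp160 and 2810454H06Rik. Katnal1 stood at -1.15, -0.85, -1.29 and -1.26 without EPO and at -2.53, -2.23, -2.24 and -2.84 with EPO, and fell by 1.32 ± 0.17 (SE) on the log2 scale (adjusted p = 0.0189, 0.0812 with the block). Bbs7 fell by 1.11 (adjusted p = 0.0349, 0.182 with the block), Zfp160 by 1.37 (adjusted p = 0.0398, 0.257 with the block) and 2810454H06Rik by 1.22 (adjusted p = 0.00773, 0.0723 with the block). For Katnal1 the adjusted p was 0.0513 to 0.0668 without unchallenged array 1 or 3 or EPO array 1 or 3. For Bbs7 it was 0.0731 to 0.106 without any 1 array other than EPO replicate 3 and 0.0812 with array weights, and for Zfp160 0.0712 to 0.126 without any 1 array other than EPO replicate 2, 0.0502 with arrays centred on their medians and 0.134 for the mean of its probe sets. Agk, the acylglycerol kinase of mitochondria and a subunit of an import complex of the inner membrane that is not in the import list above, stood at 0.93, 1.22, 0.92 and 1.41 without EPO and at -0.02, 0.01, 0.04 and 0.05 with EPO. The EPO arrays were nearly level, and Agk fell by 1.10 (adjusted p = 0.01, 0.0828 with the block) in 1 of 3 probe sets. For Agk the adjusted p was 0.17 for the mean of its probe sets.

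The response was set beside that of stage E2, where 304 genes (1.67%) were higher with EPO and 155 (0.852%) lower. These E2 calls came from the fit of all 14 arrays, which over all genes called 568 higher and 297 lower in E1. Of the 277 genes called in stage E1, 113 were also called higher in E2 and 32 lower, and none was called in the opposite direction. Whether the change differed between stages was tested by the stage by EPO interaction in a fit of all 14 arrays, which 89 of all 18193 genes (0.489%) and 42 of the 277 passed. That fit takes a common variance for both stages, although the spread between replicates differed between them. For Hhex the SD was 0.80 in unchallenged E1 arrays and 0.01 in unchallenged E2 arrays. Interaction and E2 results rest on this common variance. Genes picked for their change in E1 lean to a larger change there. That 232 of the 277 had the larger size in E1 is therefore no finding, and nor is their higher share past the interaction.

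Genes with a larger change in E1 than in E2 came from several functions. Hk2 changed by 0.00 in E2 (difference E1 minus E2 2.34, interaction adjusted p = 0.000726), Nupr1 by 0.85 (3.06, 0.00298) and Hhex by 0.04 (3.07, 0.0191). In the E2 arrays Hk2 stood at -0.06 to -0.04 and Hhex at -0.05 to 0.08. Whether either had a signal above background there is unknown, and without one no change could be seen. Sesn3 changed by 0.10 in E2 (difference -1.88, interaction adjusted p = 0.00175) and Brpf3 by -0.04 (-1.30, 0.0179). Sesn3 stood at -0.15 to 0.00 in the E2 arrays, and whether it had a signal above background there is likewise unknown. Of the ATF4 list 5 members passed the interaction, among them Nupr1, Slc7a1 (difference 1.80, adjusted p = 0.0281), Trib3 and Chac1. In E2 Nupr1 stood at -0.20 to 0.04 without EPO and at 0.76 to 0.82 with it, without overlap. Unchallenged E2 means of Nupr1, Trib3 and Chac1 (-0.07, -0.09 and -0.04) lay above their E1 means with EPO (-0.59, -2.88 and -0.93). For Slc7a1 the unchallenged E2 mean of -0.02 lay between its E1 means without and with EPO (-1.51 and 0.55). The part of these starting values in the differences was not tested. The ATF4 list median in E2 was 0.32. In the fit of all 14 arrays 3 members were higher in E2 and 15 in E1, beside 304 and 568 of all 18193 genes.

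Other genes rose in both stages with no difference past the interaction. The mitochondrial genes are an example, with Timm9 at 2.71 in E2 (interaction adjusted p = 0.631), Chchd4 at 1.69 (0.72), Timm8a1 at 1.20 (0.304) and Timm10 at 0.74 (0.114). No member of the large subunit, small subunit or snoRNP lists passed the interaction. In the fit of all 14 arrays 18, 10 and 1 of them were higher in E2 (medians 0.39, 0.33 and 0.07) and 32, 23 and 6 in E1. Over all 18193 genes that fit called 304 higher in E2 and 568 in E1. Where the interaction was not passed, the changes are not thereby shown to be alike. Srf, by contrast, rose more in E2, at 1.98 (difference -1.05, adjusted p = 0.0227). In the fit of all 14 arrays 10 of 28 immediate early factors were higher in E2 and 5 in E1, with 4 past the interaction. Over all genes these counts were 304, 568 and 89.

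**Figure D4:**
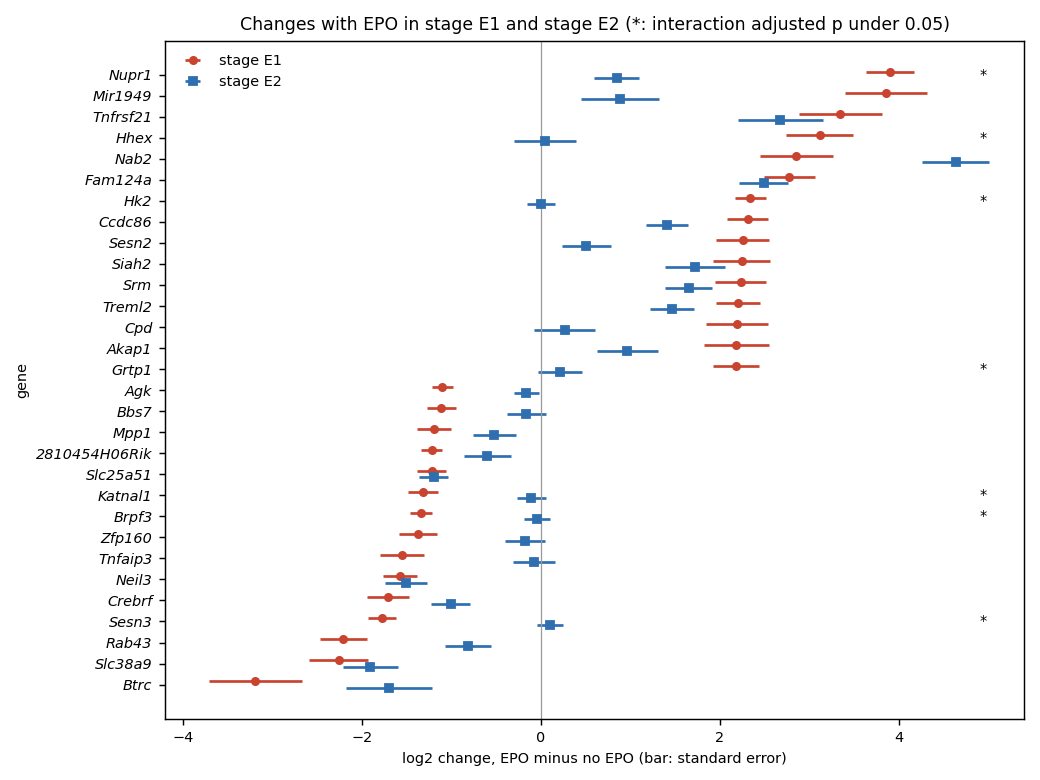
Log2 change with EPO (x axis) in stage E1 (red circles) and stage E2 (blue squares) for the 15 largest rises and 15 largest falls outside the study's text (rows), with bars of 1 standard error and a star where the stage by EPO interaction had an adjusted p under 0.05. Hhex and Hk2 lie at 0.04 and 0.00 in E2 beside E1 changes of 3.11 and 2.34, and Neil3 lies at -1.51 in E2 beside -1.58 in E1. Whether Hhex and Hk2 had a signal above background in E2 is unknown.

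A set of 100 of the 277 genes passed with any 1 array left out, and 19 of these also with the block. Outside the study's text are 6 of the 19, which are Chchd4, Rpp14, Kti12, Pwp2, Larp1 and Mgat4a. Chchd4 serves mitochondrial import and Rpp14 tRNA processing. Kti12 belongs to the tRNA-modifying Elongator pathway, Pwp2 to the small subunit processome, Larp1 to the control of ribosomal protein mRNAs and Mgat4a to the branching of N-glycans. The log2 changes of Kti12, Pwp2, Larp1 and Mgat4a were 1.15, 1.45, 0.82 and 2.04, with adjusted p of 0.00563, 0.0128, 0.00175 and 0.0052. These 6 were singled out by their stability, after their values were seen.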

How the data were processed

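RNA of stage E1 progenitors was hybridised to Affymetrix mouse arrays. Per the study's methods the authors used GCOS for the scans and GeneSpring GX 11 for GC-RMA. The deposited values are log2 (a base inferred, not stated), less 1 constant per probe set, so no filter on level was possible. Limma 3.58.1 (R 4.3.3, data.table version 1.17.8; Python 3.11.15, pandas 2.3.3, numpy 2.4.6 and matplotlib 3.10.9 for the rest) tested 45037 probe sets, without 64 controls, by a two-sided moderated test with Benjamini-Hochberg adjustment. The same model on all 14 arrays, with a common variance for both stages, gave the interaction and the calls in stage E2.

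Gene names came from the platform annotation: 34945 probe sets name 1 gene (18193 genes), 932 several and 9160 none. A gene is read from its probe set with the largest SD, which includes the EPO change and so is not independent of it.

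The 72 lists, the members named and the motifs were chosen with earlier results of these data known. Named were the 15 largest rises and the 15 largest falls among called, non-overlapping genes outside the study's text, up to 4 called members per list by p, and 2 by size where none was called.

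In E1, same-numbered arrays deviated from their group means together (r = 0.195, 0.187, 0.173 and 0.152; unchallenged 4 with EPO 3, 0.203). No source states a shared batch. Fits were tested on simulated data. Alternatives were the block, each array left out, quantile normalization, array centring, array weights, trend and robust options, all 14 arrays, probe sets with a large SD, a 2-fold limit, means of probe sets and the methods' t-test. The number of arrays limits precision.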

Additional observations from a re-analysis of the deposited data

Results flagged for a closer look

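In 13 of 248 groups of 4 stage E1 arrays of the named genes, 1 array stood apart from the other 3 by Dixon's criterion for the gap to the nearest array over the range of the group, where chance alone flags about 1 in 20 groups. Unchallenged replicate 2 was the highest for Slc38a9 (gap over range 0.971) and Sesn2 (0.907) and the lowest for Iars (0.848). Unchallenged replicate 1 was the lowest for Gab2 (0.927), Ccnd2 (0.851), Riox1 (0.942) and Cnot4 (0.838), and unchallenged replicate 3 for Cpd (0.867) and Klf3 (0.869). EPO replicate 2 was the highest for Slc25a51 (0.833) and Noct (0.849) and the lowest for Srm (0.849), and EPO replicate 1 was the lowest for Slc25a32 (0.871).

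The change with EPO differed between stages E1 and E2 by the interaction test for 23 named genes, given as the log2 change in E1 minus that in E2. Among stress and amino acid genes it was 3.06 for Nupr1, 3.30 for Trib3, 2.66 for Chac1, 1.80 for Slc7a1 and 0.64 for Pycrl. Signalling genes gave 2.68 (Irs2), 1.38 (Gab2), 1.33 (Cish) and -2.91 (Socs3). Transcription and chromatin regulators gave 3.07 (Hhex), 0.74 (Lyl1), -2.06 (Klf3), -1.05 (Srf) and -1.30 (Brpf3). The others were Hk2 (2.34), Cnot4 (2.22), Ccnb1ip1 (1.55), Grtp1 (1.96), Ears2 (0.99), Mrpl41 (0.45), Sesn3 (-1.88), Katnal1 (-1.21) and Pole (-0.39). The E2 values of Hk2, Hhex, Ccnb1ip1 and Sesn3 were nearly level. Whether these or the other named genes had a signal above background in E2 is unknown.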

How the results depend on the processing

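Blocking on the replicate number gave 44 probe sets higher, 17 lower and 44 past the stage by EPO interaction, from 362, 162 and 187, and 14 of 124 named genes kept their call. The pairing behind it is known from the arrays' deviations alone, and in E2 same-numbered arrays did not deviate together (-0.061, -0.057 and -0.016). Array weights gave 1128 higher, 762 lower and 869 past the interaction, and the fit on all 14 arrays 1063 and 632. Restricting the test to the more variable probe sets (by SD over the arrays) gave 599 higher. Requiring a fold of at least 2 left 77 lower. The methods' t-test, single-tailed and unadjusted, gave 2824 and 2370, and after Benjamini-Hochberg 324 and 146. The interaction gave 1718 after quantile normalization and 118 with trend and robust options. Leaving out 1 array gave 150 to 365 higher, 55 to 156 lower and 112 to 331 past the interaction. In these counts the fewest followed from leaving out EPO replicate 3 (150 and 55) and unchallenged replicate 2 of stage E2 (112). The cause was not tested. Of the named genes, 92 kept their call after quantile normalization, 108 with arrays centred on their medians, 120 with trend and robust options, 123 with array weights, 111 for means of probe sets and all 124 in the fit on all 14 arrays, and none changed direction. No alternative on low levels or low-signal genes could be run, since levels cannot be read from centred values, and how far a signal lay above background is unknown.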
